A study of Mus musculus with 24 samples.

Results

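The genes described here are 9 members of a set of immediate early genes in mouse embryonic fibroblasts, in 3 groups by symbol: Egr1, Egr2 and Egr3, Ier2, Ier3 and Ier5, and Zfp36, Zfp36l1 and Zfp36l2. They were chosen by name from the 47480 genes of the deposited count table, and all 9 were found. Egr3 and Zfp36l1 were selected on values already noted in these libraries under Dexa and KL001, so their differences under those 2 treatments are given as a description with no test. The study profiled poly(A) RNA of wild-type fibroblasts in 24 libraries, 3 in each of 8 groups. A group received a control small interfering RNA (siCTRL) or an siRNA against Cop1 (siCop1), the vehicle DMSO or the compound KL001, and either no Dexa or Dexa, a name kept as the labels give it. The 8 groups are therefore siCTRL DMSO, siCTRL DMSO Dexa, siCTRL KL001, siCTRL KL001 Dexa, siCop1 DMSO, siCop1 DMSO Dexa, siCop1 KL001 and siCop1 KL001 Dexa. All groups share the wild-type genotype and an siRNA, so no group went without one. Of doses, exposure times and whether the fibroblasts were primary or an established line, the labels say nothing. They also do not say whether replicates came from separate cultures, so p-values measure only the spread between these libraries, which may be technical.

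Immediate early genes are transcribed within minutes of a growth factor or stress signal from factors already present in the cell. The Egr proteins are zinc finger transcription factors that bind GC-rich sites, and serum response factor (Srf) with its Elk partners drives them through CArG boxes in their promoters, while Nab1 and Nab2 bind Egr proteins and repress their activity. Ier2, Ier3 and Ier5 encode small proteins induced with them: Ier3 is a stress gene that acts on survival and ERK signalling, and Ier5 is linked to the heat shock factor Hsf1. Zfp36 (tristetraprolin), Zfp36l1 and Zfp36l2 bind AU-rich elements in 3′ UTRs and bring the Ccr4-Not deadenylase to the message, which is then degraded. Cop1 is the substrate receptor of a ubiquitin ligase whose known targets include Jun and Etv transcription factors, and KL001 is known as a ligand that stabilises cryptochromes. Glucocorticoids are known to lower many inflammatory immediate early messages and to raise Zfp36 in several cell types.

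Promoter windows of 5 of the members were compared for the CArG box in its strict form, CC, 6 bases of A or T, and GG. RefSeq (GRCm38.p6) windows from 250 bases before to 50 bases after the start were searched for these 5 of the 9 members, namely Egr2 (5 listed starts), Ier3, Ier5, Zfp36 and Zfp36l1. Egr1 was left out of the search, and no window was at hand for Egr3, Ier2 and Zfp36l2, so nothing is said of these promoters. A CArG box was present in windows of 2 of the 5 members searched, Egr2 (4 of its 5 starts) and Zfp36, whereas 1.63% of the 32851 promoter windows of all genes hold such a box. The Egr2 windows overlap in part and the overlapping ones share a box, so the 4 are not separate finds. The share is per window, and a gene with several listed starts has more windows to match in. The 120 bases before the start are printed 5′ to 3′ for Zfp36 (chr7:28379229-28379348, minus strand) and for 2 of the Egr2 starts (chr10:67537446-67537565 and chr10:67537749-67537868, plus strand), with the CArG box in capitals.
Zfp36: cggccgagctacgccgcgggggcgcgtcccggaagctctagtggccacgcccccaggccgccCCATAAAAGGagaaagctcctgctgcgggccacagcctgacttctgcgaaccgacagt
Egr2, upstream start: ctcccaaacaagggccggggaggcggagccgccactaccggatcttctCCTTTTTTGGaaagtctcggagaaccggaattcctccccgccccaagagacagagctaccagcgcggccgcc
Egr2, downstream start: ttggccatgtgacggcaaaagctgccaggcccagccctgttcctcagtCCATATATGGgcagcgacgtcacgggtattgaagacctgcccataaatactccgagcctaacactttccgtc
The box begins 58 bases before the start in Zfp36 and 72 bases before it at both Egr2 starts shown. The Zfp36 window also holds an Egr site (GCGGGGGCG, in 2.91% of all windows) and an Ets site (CCGGAAG, in 8.86%), which overlap neither each other nor the box. On both strands, no window of these 5 members held the cyclic AMP element TGACGTCA (1.79% of all windows), the AP-1 site TGACTCA (5.2%) or AGAACA, a hexamer bound by the glucocorticoid receptor (19%). A match is a description of these letters and not a measured binding site. Variant forms and sites outside the windows were not searched, so a missing match does not show that a gene lacks the element.

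The 3′ UTRs separate the members by the heptamer TATTTAT, the core that Zfp36 proteins recognise. For each gene the annotated transcript with the longest coding sequence was used and, among equals, the one with the longest 3′ UTR. The heptamer was present in 4 of these 9 3′ UTRs, those of Ier3, Zfp36, Zfp36l1 and Zfp36l2, and in none of those of Egr1, Egr2, Egr3, Ier2 and Ier5. Other transcripts of these genes were not searched. The first site of each is printed 5′ to 3′ as DNA, with the heptamer in capitals.
Ier3: tgtctaattaaTATTTATgtatttatgta
Zfp36: agtgggcccttTATTTATgacgactttat
Zfp36l1: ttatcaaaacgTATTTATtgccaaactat
Zfp36l2: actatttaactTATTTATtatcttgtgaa
Ier3 held 4 heptamers, overlapping copies counted, within its 613 bases, a number reached by 0.639% of the 1096 genes whose 3′ UTR was within 10% of that length. Zfp36 held 3 in 774 bases, which 1.47% of 1224 genes of like length reached. Zfp36l1 and Zfp36l2 also held 3 each, in 1835 and 1822 bases, and 4.42% and 4.53% of genes of like length did so. Among genes of like length, the share with at least 1 heptamer was 31.6% for Egr1, 31.6% for Egr2, 50.1% for Egr3, 20.1% for Ier2 and 43.5% for Ier5.

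The libraries held 21409988 to 27875023 counts. Levels are given as CPM, the count as a share of the library total scaled by TMM, with mean ± SD over n = 3, and differences as log2 fold changes with their standard error (SE) from edgeR's quasi-likelihood fit. Rfwd2, the name the table uses for Cop1, stood at 28.4 ± 1.45 CPM in siCTRL DMSO and 4.81 ± 0.172 in siCop1 DMSO, and between 4.58 and 5.10 CPM on average in every siCop1 group. Fkbp5 and Tsc22d3, classic glucocorticoid-induced genes, rose with Dexa in siCTRL DMSO by 4.30 and 2.73 on the log2 scale (edgeR adjusted p = 2.39e-35 and 5.28e-32). Cry1, a clock gene repressed by cryptochromes, fell with KL001 by 1.97 (edgeR adjusted p = 5.60e-18). The 8 fibroblast markers summed to between 41080 and 58360 CPM. The 7 heart muscle markers summed to 6.46 to 80.6 CPM in siCTRL libraries and 2.62 to 3.73 CPM in siCop1 libraries, the highest being replicate 2 of siCTRL DMSO Dexa and of siCTRL KL001 (74.3 CPM), and squamous epithelium markers reached 62.7 CPM in replicate 1 of siCop1 DMSO Dexa. In bulk RNA, fewer cells of a type and less RNA per cell cannot be told apart.

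All 9 members passed the filter on low counts, yet their levels lay far apart. Per kilobase of annotated exon (GENCODE vM21, GRCm38) in siCTRL DMSO, Zfp36l2 stood highest at 51.3 ± 2.83 CPM per kb. Zfp36l1 (31.9 ± 2.20) and Ier2 (31.1 ± 2.20) followed, and then Ier3 (24.4 ± 1.24) and Ier5 (22.1 ± 1.11). Within each of these pairs the ranges of mean ± SD overlapped. The genes of a pair come from the same libraries, and no paired comparison of them was made. Egr1 stood at 17.9 ± 0.902 and Zfp36 at 7.15 ± 0.136 CPM per kb. Egr2 (0.675 ± 0.107) and Egr3 (0.504 ± 0.0865) were lowest, with overlapping libraries. Egr3 rested on 9 to 71 counts per library and Egr2 on 6 to 64, so their values are the least precise of the set. With Dexa the order of Egr1 and Zfp36 was turned: in siCTRL DMSO Dexa, Zfp36 stood at 11.6 ± 0.579 and Egr1 at 9.02 ± 0.560 CPM per kb, and Zfp36 was above Egr1 in the means of all 4 Dexa groups and below it in all 4 groups without Dexa.

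The members lie on 8 chromosomes as single protein-coding genes. Egr1 is annotated at chr18:34859823-34864984, Egr2 at chr10:67535475-67542188 and Egr3 at chr14:70077203-70082614, all on the plus strand. Ier2 lies at chr8:84661331-84662852 and Ier5 at chr1:155096361-155099636, both on the minus strand, and Ier3 at chr17:35821684-35822923 on the plus strand. Zfp36 is at chr7:28376784-28380253, Zfp36l1 at chr12:80107754-80113013 and Zfp36l2 at chr17:84183931-84187947, all on the minus strand. Each Zfp36 gene is overlapped on the other strand by an annotated gene (Gm44710, Gm26669 and AC132455.1 in the same order). Gm26669 held 14 to 66 counts per library in the table, and no source states whether the authors' counting used strand, so reads of such a pair may not be told apart.

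**Figure D1:**
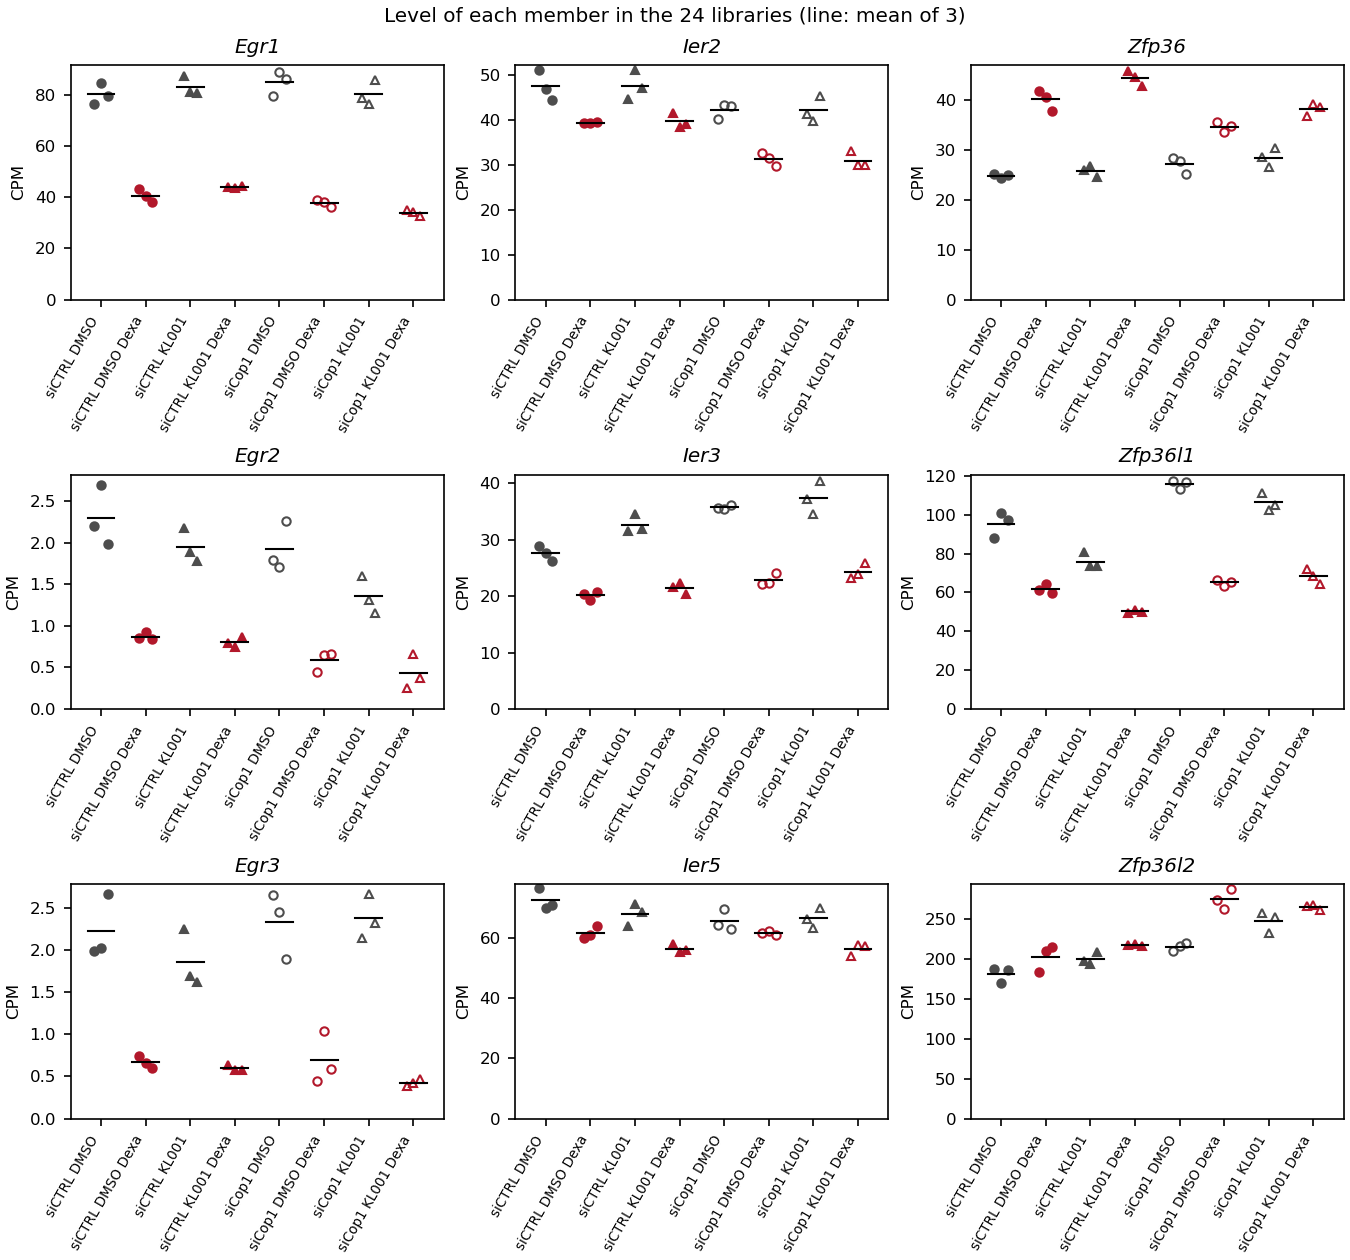
Level of each member in every library, in CPM on a linear axis from 0; columns are the 8 groups, black lines the means of 3 libraries, red points libraries with Dexa, triangles libraries with KL001, and open points libraries with siCop1. In each setting the 3 Egr genes are lower with Dexa and Zfp36 is higher, while Zfp36l2 is highest in siCop1 DMSO Dexa at 274.5 CPM.

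The siRNA against Cop1 comes first, as the rule that named the members did not name its effect. Its comparisons still share libraries with the Dexa and KL001 differences for which Egr3 and Zfp36l1 were noted. The siCop1 tests of these 2 genes, which the counts below include, are therefore not independent of that choice. Zfp36l2, Ier3 and, in 3 of 4 settings, Zfp36l1 rose with siCop1, whereas Ier2 fell in all 4 settings. Egr1 and Egr2 fell with siCop1 where KL001 and Dexa were given together, and Egr3 passed the test in no setting. In DMSO without Dexa, 3 members were higher and 2 lower of 9 tested, beside 29.4% of the 14772 genes tested (12.8% higher, 16.6% lower). In DMSO with Dexa the count was 2 higher and 2 lower, beside 31.1% of genes (14.4% higher, 16.7% lower). In KL001 without Dexa it was 4 higher and 2 lower, beside 32.7% (14.5% higher, 18.2% lower), and 3 or 4 members in all when any 1 of the 6 libraries was left out. In KL001 with Dexa it was 3 higher and 4 lower, beside 30.1% (13.7% higher, 16.3% lower). The members' median log2 fold change in the 4 settings, in the same order, was 0.081, -0.001, 0.14 and -0.22, and that of all genes lay between -0.010 and 0.001.

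Among the decay factors, Zfp36l2 read 187.6, 169.5 and 185.9 CPM in the 3 siCTRL DMSO libraries and 210.4, 215.5 and 219.6 CPM in the siCop1 DMSO libraries. The groups did not overlap, and the difference was 0.25 (SE 0.049, edgeR adjusted p = 2.71e-04). With Dexa, the siCTRL DMSO libraries read 183.5, 210 and 214.9 CPM and the siCop1 DMSO libraries 273.1, 263 and 287.5 CPM, a rise of 0.44 (SE 0.049, edgeR adjusted p = 6.95e-08). The rise was 0.31 in KL001 and 0.28 in KL001 with Dexa (edgeR adjusted p = 1.66e-05 and 5.04e-05), again with no overlap. Zfp36l1 read 88.1, 100.9 and 97.4 CPM in siCTRL DMSO and 117.2, 113.2 and 116.7 CPM in siCop1 DMSO, a rise of 0.28 (SE 0.045, edgeR adjusted p = 1.80e-05). In KL001 it rose from 75.9 ± 4.09 to 106.4 ± 4.57 CPM, or by 0.49 (SE 0.046, edgeR adjusted p = 1.48e-09), and in KL001 with Dexa by 0.44 (edgeR adjusted p = 4.82e-08). These 2 rises start from siCTRL groups that lay lower with KL001 (-0.33, and -0.30 with Dexa). A KL001 effect is what Zfp36l1 was noted for, so these 2 tests draw on values tied to the choice of Zfp36l1. In DMSO with Dexa its libraries overlapped, 59.7 to 64.5 CPM against 63.3 to 66.5 CPM, and the test was not passed (edgeR adjusted p = 0.275). Zfp36 followed another course. It was lower with siCop1 in both Dexa settings, by -0.21 in DMSO and -0.22 in KL001 (edgeR adjusted p = 0.00217 and 0.00140), and higher by 0.14 in KL001 without Dexa (edgeR adjusted p = 0.0467). This last call was lost without replicate 1 or 3 of siCTRL KL001 or replicate 1 or 3 of siCop1 KL001 (0.096 to 0.15) and by DESeq2 (adjusted p = 0.0594), in the fit with no filter on low counts (edgeR adjusted p = 0.0570) and in the fit to the 2 groups alone (edgeR adjusted p = 0.102).

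Of the Ier genes, Ier3 read 28.9, 27.6 and 26.1 CPM in siCTRL DMSO and 35.6, 35.4 and 36.2 CPM in siCop1 DMSO, a rise of 0.37 (SE 0.057, edgeR adjusted p = 6.07e-06) with no overlap. It rose by 0.18 in DMSO with Dexa, 0.20 in KL001 and 0.18 in KL001 with Dexa (edgeR adjusted p = 0.0266, 0.00646 and 0.0291). The call in DMSO with Dexa was lost without replicate 1 or 2 of siCTRL or replicate 3 of siCop1 (0.14 to 0.18), that in KL001 without replicate 3 of siCop1 (0.14), and that in KL001 with Dexa without replicate 1 or 3 of siCTRL or replicate 3 of siCop1 (0.14 to 0.19). Ier2 fell in every setting, by -0.17 in DMSO, -0.33 in DMSO with Dexa, -0.17 in KL001 and -0.36 in KL001 with Dexa (edgeR adjusted p = 0.0213, 7.82e-05, 0.0180 and 2.83e-05). With Dexa the Ier2 libraries read 39.2, 39.2 and 39.5 CPM in siCTRL DMSO and 32.7, 31.4 and 29.7 CPM in siCop1 DMSO, and those groups did not overlap. Without Dexa the Ier2 call in DMSO was lost by DESeq2 (adjusted p = 0.0503) and without replicate 1 of siCTRL (-0.11) or of siCop1 (-0.14), and the call in KL001 without replicate 2 of siCTRL (-0.12), replicate 1 (-0.16) or replicate 2 (-0.14) of siCop1, and in the fit to the 2 groups alone. Ier5 fell only in DMSO without Dexa, from 72.5 ± 3.63 to 65.6 ± 3.57 CPM (-0.15, edgeR adjusted p = 0.0152), and not without replicate 1 of siCTRL (-0.10) or replicate 1 (-0.13) or 3 (-0.12) of siCop1. In the other 3 settings the siCop1 difference of Ier5 lay between -0.030 and -0.001, and whether it differed from the first is given below as an interaction.

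Among the transcription factors, Egr1 read 43.9, 43.6 and 44.4 CPM in siCTRL KL001 Dexa and 35.0, 34.1 and 32.7 CPM in siCop1 KL001 Dexa. The groups did not overlap, and Egr1 fell by 0.37 on the log2 scale (SE 0.057, edgeR adjusted p = 6.12e-06). In the other 3 settings its libraries overlapped and the difference lay between -0.10 and 0.081. Egr2 fell from 0.803 ± 0.0591 to 0.430 ± 0.206 CPM in KL001 with Dexa (-0.87, SE 0.289, edgeR adjusted p = 0.0222), on 17 to 21 counts per siCTRL library and 6, 17 and 8 counts in the siCop1 libraries. That call was lost by DESeq2 (adjusted p = 0.0647) and without replicate 3 of siCTRL (-0.82), replicate 1 (-0.61) or replicate 3 (-0.78) of siCop1. Egr2 also passed in KL001 without Dexa (-0.52, edgeR adjusted p = 0.0499), but in none of the 5 other settings of the fit and in 1 of 6 fits that left out a library, with adjusted p from 0.0533 to 0.183 in the fits that lost it. Egr3 differences with siCop1 ran from -0.48 to 0.35, with 95% intervals as wide as -1.13 to 0.17.

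Markers of other cells moved with siCop1 as well. Of the 7 heart muscle markers, Des, Tnni3 and Cox6a2 were called lower in siCop1 DMSO. Their summed level there was 2.62 to 3.73 CPM against 21.5 to 61.6 CPM in siCTRL DMSO, with Myh6 and Myl7 at 0 there. With Dexa the sums were 2.75 to 2.96 against 6.46 to 80.6 CPM, in KL001 2.69 to 3.17 against 7.81 to 74.3 CPM, and in KL001 with Dexa 3.14 to 3.53 against 7.28 to 26.3 CPM. Myl7 was at 0 in all 4 siCop1 groups and in siCTRL KL001 Dexa, and Actn2 in the siCop1 groups with Dexa. Without replicate 2 of siCTRL DMSO Dexa, the highest library, the rise of Zfp36l2 and the falls of Ier2 and Zfp36 in that setting stayed past the threshold. The rise of Ier3 in that setting did not. In siCTRL DMSO the highest library was replicate 1 (61.6 CPM), without which the Ier2 and Ier5 calls were lost. In siCTRL KL001 it was replicate 2 (74.3 CPM), without which the Ier2 call was lost. Both libraries read highest of their group in Ier2 (51.01 and 50.95 CPM). These calls were also lost without some siCop1 libraries, where the sums were low, so leaving out 1 library cannot test the part of these markers. The 8 fibroblast markers summed to 54970 to 58360 CPM in siCTRL DMSO and 48550 to 50060 CPM in siCop1 DMSO. Of the blood markers, Cd68 was called higher in siCop1 DMSO (0.46, edgeR adjusted p = 0.0212), with sums of 4.32 to 8.94 against 4.11 to 5.20 CPM. The 4 endothelial markers summed to 1.19 to 1.49 CPM in siCop1 DMSO against 2.22 to 2.81 CPM in siCTRL DMSO, and 1 of 3 tested was called lower. In KL001 without Dexa the endothelial sums overlapped (1.44 to 2.16 against 1.97 to 2.43 CPM). The part of these markers in the siCop1 differences was not tested.

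**Figure D2:**
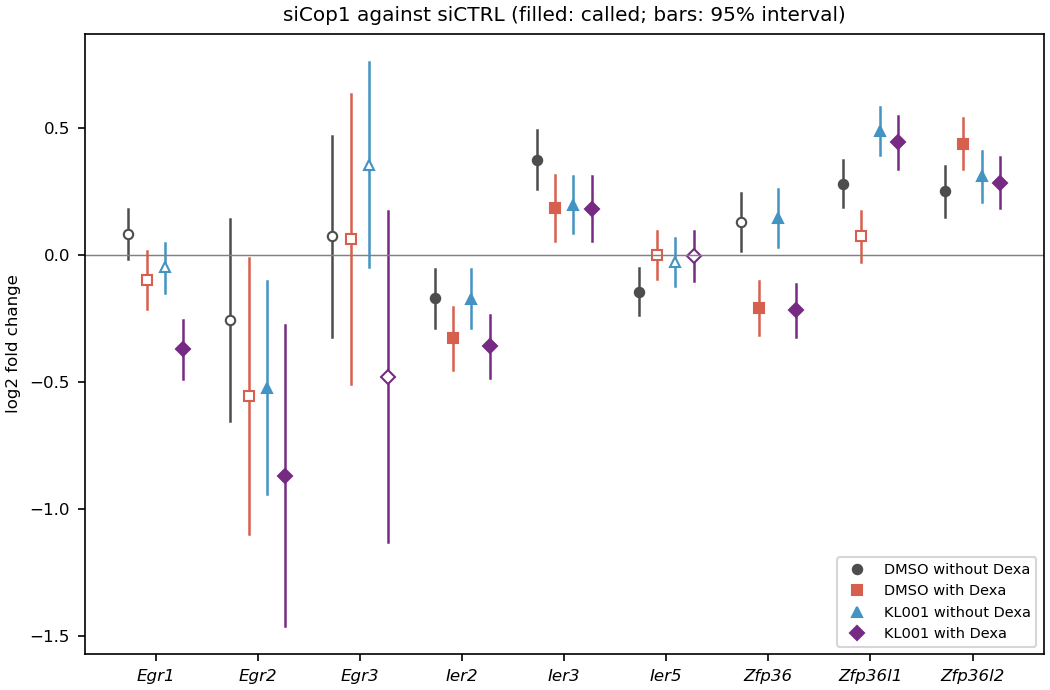
Difference of siCop1 from siCTRL for each member in the 4 settings, in log2 fold change; bars are 95% intervals and filled symbols are called at an adjusted p below 0.05. Zfp36l2 and Ier3 lie above 0 and Ier2 below 0 in all 4 settings, and Egr2 and Egr3 have the widest intervals.

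For Egr1, Egr2 and Zfp36 the Dexa differences were larger in every setting than any siCop1 or KL001 difference of the same gene. Of the 7 members tested, Egr1, Egr2, Ier2 and Ier3 fell in all 4 settings, Ier5 fell in 3 of 4, and Zfp36 rose in all 4. In siCTRL DMSO 2 were higher and 5 lower, beside 26.8% of all genes (12.7% higher, 14.1% lower). In siCTRL KL001 1 was higher and 5 lower, beside 26.8% (12.7% higher, 14.0% lower). In siCop1 DMSO 2 were higher and 4 lower, beside 23.7% (12% higher, 11.6% lower), and in siCop1 KL001 1 was higher and 5 lower, beside 24.5% (12.1% higher, 12.4% lower). The median of the 7 was -0.27, -0.27, -0.43 and -0.45 in that order, and that of all genes lay between -0.010 and 0.002. The list was drawn up with Dexa results known, so nothing is read from these counts against those of all genes. The Dexa, siCop1 and KL001 comparisons share libraries, siCTRL DMSO being in all 3. Fibroblast markers moved too: Pdgfra rose by 0.97 and Pdgfrb fell by 0.63 with Dexa in siCTRL DMSO (edgeR adjusted p = 4.78e-13 and 1.55e-13), while the sum of the 8 markers was 54970 to 58360 CPM without and 53290 to 54150 CPM with Dexa. The 4 endothelial markers summed to 2.22 to 2.81 CPM without and 1.28 to 1.75 CPM with Dexa there. The part of these markers in the Dexa differences was not tested.

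Egr1 read 76.5, 84.5 and 79.5 CPM in siCTRL DMSO and 43.0, 40.5 and 37.9 CPM with Dexa. It fell by 0.98 on the log2 scale (SE 0.052, edgeR adjusted p = 1.65e-15), and its Dexa and non-Dexa libraries overlapped in none of the 4 settings. The other falls of Egr1 were -0.92 in siCTRL KL001, -1.17 in siCop1 DMSO and -1.24 in siCop1 KL001. Egr2 read 2.20, 2.69 and 1.99 CPM in siCTRL DMSO and 0.856, 0.921 and 0.837 CPM with Dexa, a difference of -1.39 (SE 0.218, edgeR adjusted p = 7.48e-06). Its Dexa differences in the other settings were -1.27, -1.69 and -1.62, with intervals that overlapped. Egr3 read 1.98, 2.02 and 2.66 CPM in siCTRL DMSO and 0.740, 0.658 and 0.598 CPM with Dexa, the first on 48 to 67 counts and the second on 15 to 19. Its fitted differences, given without a test, were -1.73 in siCTRL DMSO, -1.63 in siCTRL KL001, -1.74 in siCop1 DMSO and -2.47 in siCop1 KL001. In every setting the 3 Dexa libraries of Egr3 lay below the 3 others.

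The Ier genes moved less. Ier3 read 28.9, 27.6 and 26.1 CPM in siCTRL DMSO and 20.3, 19.3 and 20.8 CPM with Dexa, a fall of 0.45 (SE 0.061, edgeR adjusted p = 7.31e-07). Its difference was -0.61 in siCTRL KL001, -0.64 in siCop1 DMSO and -0.62 in siCop1 KL001. Ier2 differed by -0.27, -0.26, -0.43 and -0.45 in the 4 settings, with an edgeR adjusted p of 7.65e-04 or lower in each. Ier5 fell by 0.23 in siCTRL DMSO, 0.27 in siCTRL KL001 and 0.24 in siCop1 KL001 (edgeR adjusted p = 1.89e-04, 4.18e-05 and 1.74e-04). In siCop1 DMSO its difference was -0.089, with a 95% interval of -0.18 to 0.005.

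Among the decay factors, Zfp36 rose in all 4 settings while the Zfp36l1 libraries lay lower with Dexa. Zfp36 read 25.2, 24.3 and 24.9 CPM in siCTRL DMSO and 41.8, 40.7 and 37.9 CPM with Dexa, a rise of 0.69 (SE 0.054, edgeR adjusted p = 1.21e-11) or 1.62-fold. Zfp36l1, which is described without a test, read 88.1, 100.9 and 97.4 CPM and with Dexa 61.5, 64.5 and 59.7 CPM, a difference of -0.62. In the other settings Zfp36l1 differed by -0.59 (siCTRL KL001), -0.83 (siCop1 DMSO) and -0.64 (siCop1 KL001), and no Dexa library reached the level of a library without Dexa of the same setting. Zfp36l2 rose by 0.35 in siCop1 DMSO (SE 0.048, edgeR adjusted p = 2.18e-06), from 215.2 ± 4.62 to 274.5 ± 12.3 CPM. In siCTRL DMSO it rose by 0.16 with overlapping libraries (edgeR adjusted p = 0.0132), a call lost without replicate 2 of siCTRL DMSO (0.13), without replicate 2 (0.15) or 3 (0.13) of siCTRL DMSO Dexa, and in the fit to the 2 groups alone (edgeR adjusted p = 0.0632). In the KL001 settings the Zfp36l2 difference was 0.12 and 0.096 and did not pass (edgeR adjusted p = 0.0731 and 0.170), though it passed in the fit to the 2 groups alone (edgeR adjusted p = 0.0398 and 0.0336). With the replicate number as a block in that fit, the difference in siCTRL KL001 was 0.13 (edgeR adjusted p = 0.0387).

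**Figure D3:**
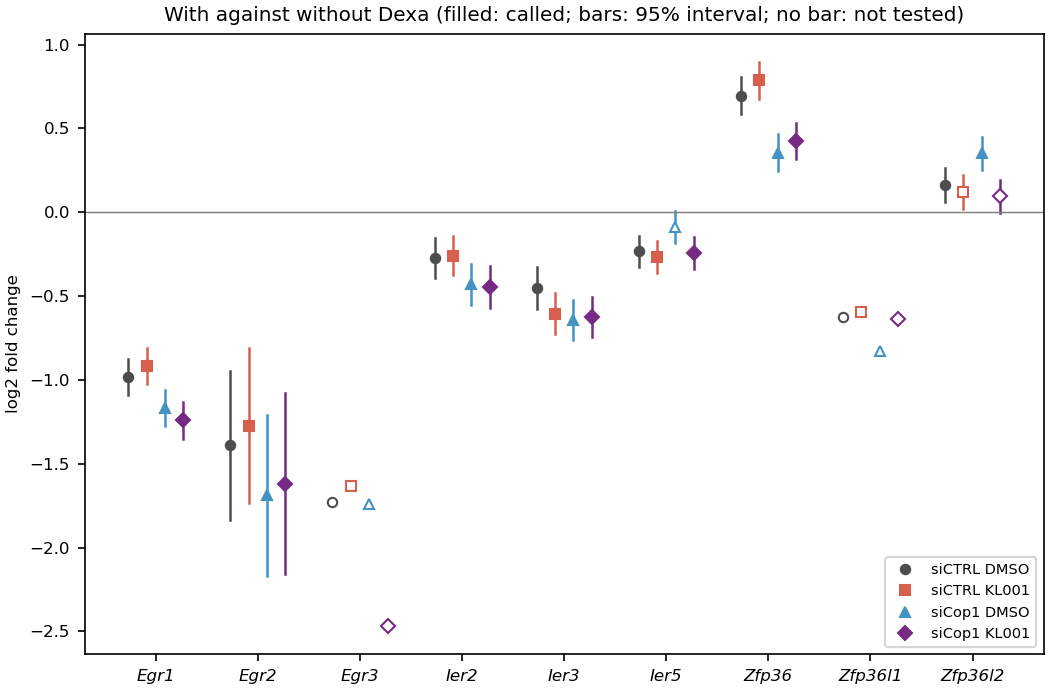
Difference with against without Dexa for each member in the 4 settings, in log2 fold change; bars are 95% intervals, filled symbols are called, and Egr3 and Zfp36l1 have no bar because they were not tested. Zfp36 lies above 0 and Egr1, Egr2, Ier2 and Ier3 below 0 in all 4 settings, and the Zfp36 points for siCop1 (0.35 and 0.42) lie below those for siCTRL (0.69 and 0.79).

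Whether siCop1 altered the response to Dexa was tested as an interaction. The rise of Zfp36 was smaller with siCop1 in both compounds. In DMSO it was 0.69 with siCTRL and 0.35 with siCop1, a difference of -0.34 (SE 0.076, edgeR adjusted p = 0.0233), and in KL001 0.79 and 0.42, a difference of -0.36 (SE 0.075, edgeR adjusted p = 0.0147). The libraries behind this read 35.7, 33.6 and 34.7 CPM in siCop1 DMSO Dexa, all below the 37.9 to 41.8 CPM of siCTRL DMSO Dexa, and 28.5, 27.8 and 25.1 CPM in siCop1 DMSO, which overlapped those of siCTRL DMSO. A smaller rise with siCop1 was not particular to Zfp36. The same term for the check gene Fkbp5 was -0.764 in DMSO and -0.641 in KL001 (edgeR adjusted p = 2.06e-11 and 1.01e-09). For the check gene Tsc22d3 it was 0.113 and 0.108 and did not pass (edgeR adjusted p = 0.439 and 0.465). The fall of Egr1 was larger with siCop1 in KL001, -1.24 against -0.92, a difference of -0.32 (SE 0.074, edgeR adjusted p = 0.0372). With the replicate number as a block, that adjusted p was 0.0545. In DMSO the same term for Egr1 was -0.18 and did not pass (edgeR adjusted p = 0.517). Of the 7 members tested, 1 passed in DMSO, beside 0.670% of all genes, and 2 passed in KL001, beside 0.562%. The calls were close to the threshold: that of Zfp36 in DMSO was lost without replicate 2 of siCTRL DMSO, replicate 1 or 2 of siCop1 DMSO, or replicate 2 or 3 of siCop1 DMSO Dexa (-0.34 to -0.30), and that in KL001 without replicate 3 of siCTRL KL001, replicate 1 of siCTRL KL001 Dexa, replicate 3 of siCop1 KL001 or replicate 1 of siCop1 KL001 Dexa (-0.34 to -0.32). The Egr1 call was lost without replicate 2 or 3 of siCTRL KL001, 1 or 3 of siCTRL KL001 Dexa, 1 or 3 of siCop1 KL001, or any replicate of siCop1 KL001 Dexa, with a difference between -0.35 and -0.27.

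None of the other members tested showed a Dexa response that passed as different with siCop1. Ier3 differed by -0.19 in DMSO and -0.017 in KL001, Ier2 by -0.16 and -0.19, and Ier5 by 0.15 and 0.025. For Zfp36l2 the terms were 0.19 (95% interval 0.046 to 0.33, edgeR adjusted p = 0.422) and -0.024. Untested, Zfp36l1 differed by -0.20 and -0.044 and Egr3 by -0.010 and -0.84, the last on Egr3 libraries of 9 to 11 counts in siCop1 KL001 Dexa. Markers of other cells differed between the Dexa groups. In DMSO, the 5 airway epithelium markers summed to 10.8 to 11.4 CPM in siCop1 DMSO Dexa against 3.39 to 5.99 CPM in siCTRL DMSO Dexa, and 2 of the 4 tested were called higher, Pigr by 3.37 (edgeR adjusted p = 0.00964). The 5 blood markers summed to 6.11 to 9.91 against 3.19 to 5.17 CPM, also with no overlap, and squamous epithelium markers to 18.9 to 62.7 against 12.1 to 19.5 CPM, with overlap. In KL001 with Dexa, blood markers summed to 7.49 to 15.1 CPM with siCop1 against 2.55 to 4.34 CPM with siCTRL, where Adgre1 was at 0. Airway (8.32 to 15.8 against 1.77 to 9.26 CPM) and squamous sums (14.1 to 31.4 against 8.39 to 22.2 CPM) overlapped there. The part of these markers in the interactions was not tested. Without replicate 1 of siCop1 DMSO Dexa, the library with the highest squamous sum, the Zfp36 call in DMSO was kept. Without replicate 2 or 3 of that group it was lost. Those 2 libraries had airway sums of 10.76 and 11.45 CPM and blood sums of 9.91 and 9.26 CPM, against 11.01 and 6.11 CPM in replicate 1. Leaving out 1 library therefore cannot test the part of these markers.

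**Figure D4:**
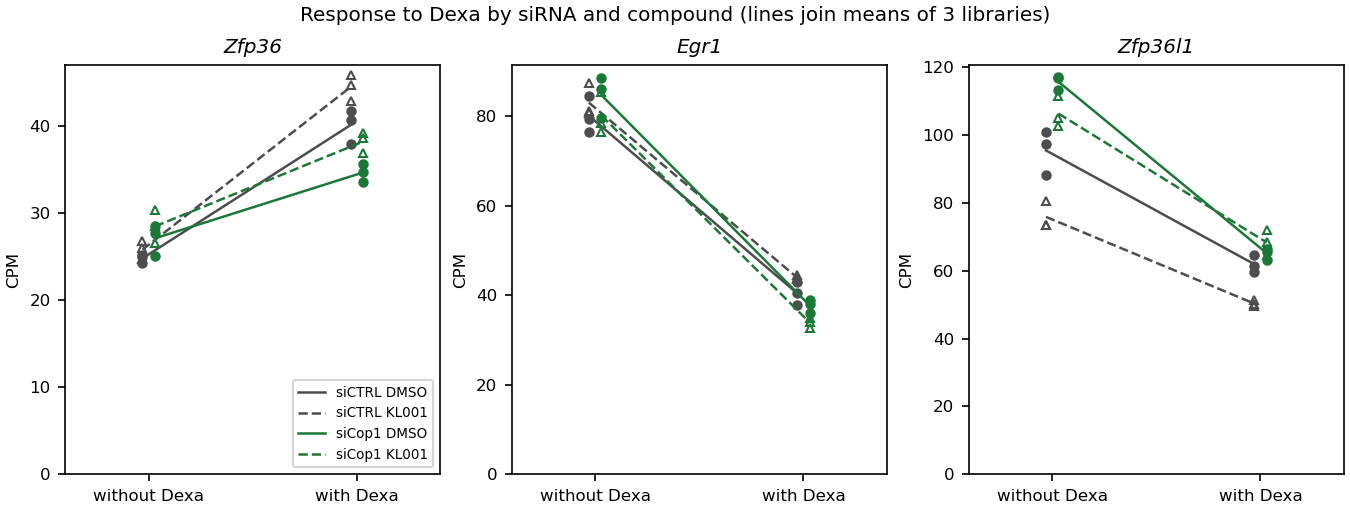
Levels of Zfp36, Egr1 and Zfp36l1 without and with Dexa, in CPM from 0; points are libraries, lines join group means, green is siCop1, gray siCTRL, dashed lines and open triangles KL001. The green Zfp36 lines end below the gray lines (34.7 and 38.2 against 40.1 and 44.5 CPM), and the Zfp36l1 lines end lower with Dexa in all 4 pairs of groups.

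KL001 moved few of the tested members past the threshold. In siCTRL without Dexa, 1 of 7 members was called, beside 6.73% of all genes (3.22% higher, 3.51% lower). This was Ier3, at 28.9, 27.6 and 26.1 CPM in DMSO and 31.5, 34.5 and 31.8 CPM in KL001, a rise of 0.24 (SE 0.057, edgeR adjusted p = 0.00784) with no overlap. The call was lost without replicate 3 of siCTRL DMSO (0.21) or replicate 2 of siCTRL KL001 (0.20), and in the fit to the 2 groups alone (edgeR adjusted p = 0.0915). Heart muscle markers summed to 74.3 CPM in replicate 2 of siCTRL KL001, against 7.81 CPM in replicate 1 and 7.89 CPM in replicate 3. The part of these markers in the Ier3 difference was not tested. In siCop1 without Dexa, 1 of 7 was called, beside 4.09% (1.77% higher, 2.32% lower). This was Zfp36l2, which rose from 215.2 ± 4.62 to 247.5 ± 13.2 CPM (0.20, SE 0.048, edgeR adjusted p = 0.0119), a call lost without replicate 1 of siCop1 DMSO (0.19) or replicate 1 (0.17) or 3 (0.19) of siCop1 KL001. Beside this, the 8 fibroblast markers summed to 48000 to 52610 CPM in siCTRL KL001 and 54970 to 58360 CPM in siCTRL DMSO, and to 42230 to 43680 CPM in siCop1 KL001 and 48550 to 50060 CPM in siCop1 DMSO, and their part was not tested. With Dexa, edgeR called 0 of 7 in siCTRL, beside 10.6% of all genes (4.98% higher, 5.58% lower), or 1560 genes, against 807 with the replicate number as a block in the fit to the 2 groups alone. It called 0 of 7 in siCop1 with Dexa, beside 5.46% (2.50% higher, 2.97% lower). At an unadjusted p below 0.05 there were 3 members in each, Egr1, Ier5 and Zfp36, and DESeq2 also called 0 in each. Egr1 differed in sign, at 0.12 in siCTRL and -0.15 in siCop1, while Ier5 (-0.13 in each) and Zfp36 (0.15 and 0.14) did not. The fit to the 2 siCop1 groups alone called all 3, Egr1 (-0.15), Ier5 (-0.13) and Zfp36 (0.14).

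Zfp36l1 was noted for KL001 and is described here without a test. It read 88.1, 100.9 and 97.4 CPM in siCTRL DMSO and 80.6, 73.5 and 73.5 CPM in siCTRL KL001, a difference of -0.33 with no overlap. With Dexa the siCTRL libraries read 61.5, 64.5 and 59.7 CPM in DMSO and 49.6, 51.2 and 50.1 CPM in KL001, a difference of -0.30, again with no overlap. In siCop1 the KL001 difference was -0.12 without Dexa, with the libraries just apart (113.2 to 117.2 against 102.6 to 111.4 CPM), and 0.070 with Dexa, with overlap. The siCop1 by KL001 terms of Zfp36l1 were 0.21 without Dexa and 0.37 with Dexa. The KL001 differences of Egr3 were -0.26 (siCTRL), -0.16 (siCTRL Dexa), 0.025 (siCop1) and -0.70 (siCop1 Dexa). The last value was -0.28 without replicate 2 of siCop1 DMSO Dexa, which held 27 Egr3 counts where the other 2 held 11 and 15. No tested member passed the siCop1 by KL001 interaction in edgeR, without Dexa (1 at an unadjusted p below 0.05) or with Dexa (2), beside 0% and 0.0677% of all genes. Neither did any pass the KL001 by Dexa interaction in siCTRL (0 unadjusted) or siCop1 (2 unadjusted), beside 0% and 0.0677%, and DESeq2 called 0 members in all 4. Over all genes, the terms in which edgeR called 0 had 982 (siCop1 by KL001 without Dexa) and 888 (KL001 by Dexa in siCTRL) at an unadjusted p below 0.05, and DESeq2 called 10 and 2.

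The other immediate early genes, a list of 34 of which 32 were tested, did not share 1 direction. This list and those that follow were chosen with earlier results of these data known, so their counts beside those of all genes are description only. With Dexa in siCTRL DMSO 13 rose and 10 fell of the 32, beside 12.7% and 14.1% of all genes, and their median was 0.036 beside -0.008 for all genes. The largest changes among those named by rule were rises, of the kinase gene Sik1 (1.41), Csrnp1 (1.30) and the small GTPase gene Gem (1.17), with edgeR adjusted p of 5.45e-20, 5.35e-14 and 1.73e-11. Dusp1, a MAP kinase phosphatase gene, also rose (0.94), while Arc (-1.01) and Fos (-0.67) fell (edgeR adjusted p = 1.40e-15, 8.21e-12 and 0.00113). These last 3 were chosen after their values were seen. With siCop1 in DMSO without Dexa 7 rose and 8 fell (median -0.030 beside -0.010, and 12.8% and 16.6% of all genes), led by the AP-1 subunit gene Fosl1 (1.32), the stress factor gene Atf3 (-0.65) and Nfkbiz (0.58), and with Dexa 8 rose and 13 fell (14.4% and 16.7% of all genes), led by Fosl1 (1.38), Jun (0.63) and Csrnp1 (-0.58). With KL001 in siCTRL without Dexa 4 rose and 1 fell (3.22% and 3.51% of all genes), with Klf2 (-0.30), Klf10 (0.27) and Atf3 (0.24) changed most.

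**Figure D5:**
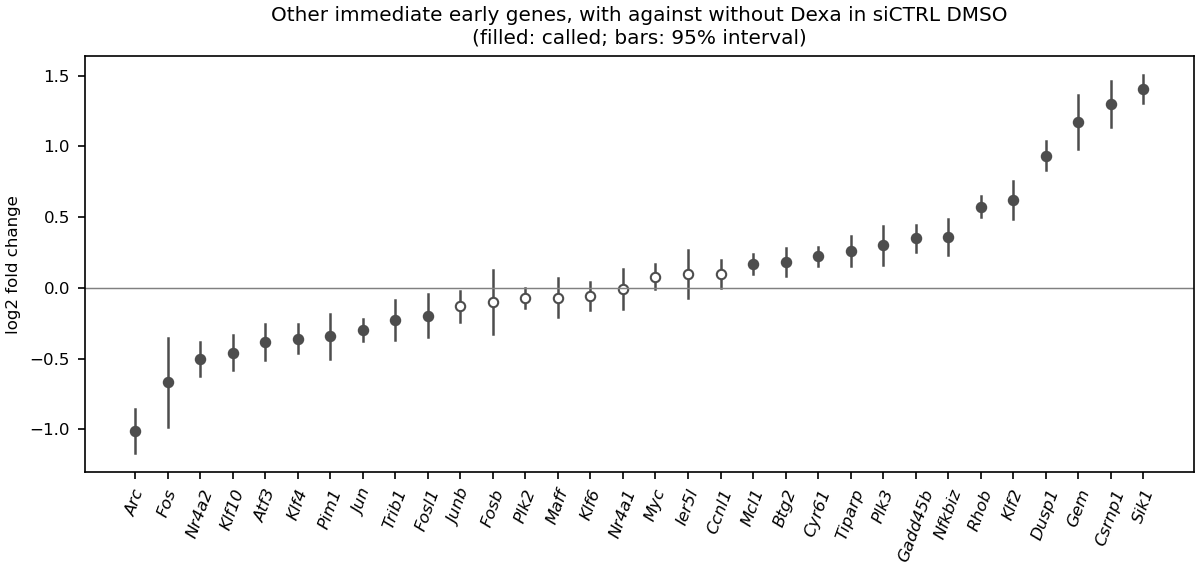
Dexa difference in siCTRL DMSO of the 32 other immediate early genes tested, in log2 fold change, ordered by size; bars are 95% intervals and filled points are called. The list runs from Arc at -1.01 to Sik1 at 1.41, with 13 genes called higher and 10 called lower.

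Of the 8 Egr activators and corepressors, 1 rose and 3 fell with Dexa in siCTRL DMSO (median -0.075 beside -0.008), where 12.7% of all genes rose and 14.1% fell. The corepressor gene Nab2 fell by 0.51 (edgeR adjusted p = 2.89e-11) and Srf by 0.27 (edgeR adjusted p = 4.05e-05), while the Srf coactivator gene Mkl1 rose by 0.14 (edgeR adjusted p = 0.00183). With siCop1 in DMSO without Dexa 3 rose and 2 fell, beside 12.8% and 16.6% of all genes, among them Elk3 (0.32), Nab1 (-0.17) and Elk1 (0.16). With Dexa 2 rose and 3 fell, beside 14.4% and 16.7%, among them Elk3 (0.23), Nab2 (-0.18) and Mkl2 (0.17).

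Messages described as targets of Zfp36 decay numbered 15, of which 9 were tested, with Myc and Pim1 also on the list above. With Dexa in siCTRL DMSO 0 rose and 8 fell (median -0.34 beside -0.008), beside 12.7% and 14.1% of all genes, and Myc (0.080) did not pass. The chemokine gene Cxcl1 fell by 0.96, the prostaglandin synthase gene Ptgs2 by 0.89 and Ccl2 by 0.68 (edgeR adjusted p = 1.14e-11, 7.81e-12 and 5.45e-05). In siCTRL KL001 0 rose and 7 fell (median -0.26 beside -0.010, and 12.7% and 14.0% of all genes). In siCop1 DMSO 1 rose and 7 fell (median -0.555 beside 0.002, and 12% and 11.6%), and in siCop1 KL001 0 rose and 8 fell (median -0.24 beside 0.000, and 12.1% and 12.4%). The list was chosen with earlier results of these data known, so nothing is read from these counts against those of all genes. Any part of Zfp36 in these falls was not tested. With siCop1 in DMSO without Dexa 3 rose and 3 fell, beside 12.8% and 16.6% of all genes, among them Ptgs2 (0.52), Vegfa (-0.42) and Myc (0.36). With Dexa 2 rose and 3 fell, beside 14.4% and 16.7%, among them Lif (-0.69), Ccl7 (-0.54) and Myc (0.40). With KL001 in siCTRL without Dexa 3 rose and 0 fell, beside 3.22% and 3.51%: the cyclin gene Ccnd1 (0.25), Myc (0.20) and Vegfa (0.098). Of the 12 partners in deadenylation and AU-rich element binding, 1 rose (Mapk14, 0.26) and 1 fell (Mapkapk2, -0.17) with Dexa in siCTRL DMSO, both kinases upstream of Zfp36, which is 2 of 12 beside 26.8% of all genes. With siCop1 in DMSO without Dexa 4 rose and 1 fell, beside 29.4% of all genes, the largest change being that of the deadenylase subunit gene Cnot6 (0.44, edgeR adjusted p = 5.44e-09), beside Mapk14 (-0.23) and Cnot6l (0.15).

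Likeness was measured by Pearson's r of log2 CPM over the 24 libraries, which share the same 8 groups, so r is a description of group levels. The gene most like Zfp36 was Dusp1 (r = 0.976), followed by Znhit6 and Egln3 (0.967 each). Egr1 was most like Pmepa1 (0.978), Lifr (0.971) and Irak2 (0.971), and Egr3 like Pdgfrb (0.959), Stk3 (0.956) and Egr1 itself (0.952). Egr2 was most like Coro2b (0.949), Unc5b (0.944) and Lasp1 (0.942). Zfp36l1 was most like Il1r1 (0.960), Cttnbp2nl and Fmnl3 (0.956 each), and Zfp36l2 like Nus1 (0.918), Sqrdl (0.912) and Cdh13 (0.902). Ier2 was most like Tpm1 (0.947), Ajuba (0.944) and Lbh (0.937), Ier3 like Fhod1 (0.963), Map2k3 (0.962) and Lrrtm3 (0.959), and Ier5 like Scarf2 (0.922), Scx (0.911) and Zfp467 (0.909). Within the set, r was 0.908 between Egr1 and Egr2, -0.82 between Zfp36 and Zfp36l1, and -0.15 between Zfp36l1 and Zfp36l2.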

How the data were processed

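RNA of 24 libraries was measured; per the labels, stranded poly(A) libraries were sequenced as 50-base single reads over 3 lanes. Per the submitters' processing notes, bcl2fastq 1.8.4, STAR 2.4.5a, featureCounts of Subread 1.4.6-p3, Picard 1.126 and DESeq2 were used with GRCm38 (mm10); the annotation release and strand setting of the counting are not stated there. The authors deposited raw counts per gene symbol, and their normalized table was not used. Genes kept by filterByExpr (minimum count 10, minimum total 15; 14772 genes) were scaled by TMM and tested in R 4.3.3 with edgeR 4.0.16 (robust quasi-likelihood, 1 mean per group, all 24 libraries, two-sided, Benjamini-Hochberg over all genes, called at an adjusted p below 0.05). The 9 members and the gene lists were chosen with earlier results of these data known. Named are the members, 4 check genes, up to 3 called list genes with the largest change and at least 1 CPM in 4 comparisons, and the 3 genes most like each member. Alternatives were RLE scaling, no filter, DESeq2 1.42.0, a replicate block, the compared groups alone, and leaving out each library. Samples of equal replicate number deviated together (correlation over 0.1 in all 3 pairs) in 2 of 12 comparisons, Dexa in siCTRL KL001 (0.32 to 0.57) and KL001 in siCTRL with Dexa (0.18 to 0.53); a block in the fit to these groups alone was added after this was seen. Library totals had a median of 25337292 counts, which set the precision; the common biological coefficient of variation was 3.71%.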

Additional observations from a re-analysis of the deposited data

Results flagged for a closer look

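Among the members tested, responses to Dexa that differed between siCTRL and siCop1 were picked out by the test of the difference itself. Zfp36 rose less with siCop1, with a log2 difference between the responses of -0.340 in DMSO and -0.363 in KL001. The fall of Egr1 in KL001 was larger with siCop1, with a difference of -0.323. In each, all 3 libraries of siCop1 with Dexa lay below all 3 of siCTRL with Dexa, and the libraries without Dexa overlapped.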

How the results depend on the processing

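Of 134 tested differences of members, 52 were called, and none of these changed direction under the alternatives run, while 74 were called in no fit. Fits that left out a library kept the verdict 925 times, lost a call 53 times, gained one 2 times and turned the sign of an uncalled value 76 times, and other fits did so 654, 14, 10 and 6 times. Counts of members called moved by over 1.5 times as follows, and the cause was not tested. With siCop1 in DMSO without Dexa, 5 members fell to 3 at the lowest when a library was left out (highest 5). With siCop1 in KL001 without Dexa, 6 became 3 in the fit to the groups compared, and 3 to 4 when a library was left out. KL001 in siCTRL without Dexa gave 1, but 2 with no filter, 0 in the groups compared and 0 to 1 with a library left out. KL001 in siCop1 gave 0 to 1 without Dexa with a library left out, and with Dexa 3 rather than 0 in the groups compared. The siCop1 by Dexa interaction gave 0 to 1 in DMSO and 0 to 2 in KL001 with a library left out, and 1 rather than 2 in KL001 with the replicate block. The KL001 by Dexa interaction in siCop1 gave 1 rather than 0 (Zfp36l2) with no filter and in the groups compared.

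Uncalled values that changed sign ranged as follows with a library left out. For siCop1 in DMSO without Dexa this was Egr3 (-0.031 to 0.229). For siCop1 in DMSO with Dexa these were Egr3 (-0.360 to 0.287) and Ier5 (-0.030 to 0.019). For siCop1 in KL001 without Dexa this was Ier5 (-0.071 to 0.004). For siCop1 in KL001 with Dexa this was Ier5 (-0.023 to 0.024). For KL001 in siCTRL without Dexa this was Ier2 (-0.051 to 0.059). For KL001 in siCTRL with Dexa this was Ier2 (-0.022 to 0.038). For KL001 in siCop1 without Dexa these were Ier2 (-0.058 to 0.038) and Ier5 (-0.016 to 0.065). For KL001 in siCop1 with Dexa this was Ier2 (-0.064 to 0.016). For the siCop1 by Dexa interaction in KL001 these were Ier3 (-0.071 to 0.042), Ier5 (-0.010 to 0.065) and Zfp36l2 (-0.067 to 0.005). For the siCop1 by KL001 interaction without Dexa these were Ier2 (-0.060 to 0.050) and Zfp36 (-0.037 to 0.063). For the siCop1 by KL001 interaction with Dexa these were Ier2 (-0.079 to 0.005), Ier3 (-0.048 to 0.036), Ier5 (-0.029 to 0.025) and Zfp36 (-0.034 to 0.033). For the KL001 by Dexa interaction in siCTRL these were Egr2 (-0.009 to 0.207), Ier2 (-0.045 to 0.066), Ier5 (-0.075 to 0.003) and Zfp36l2 (-0.116 to 0.001). For the KL001 by Dexa interaction in siCop1 these were Egr2 (-0.404 to 0.330), Ier2 (-0.063 to 0.041) and Ier3 (-0.033 to 0.081). In other fits, Ier5 for siCop1 in DMSO with Dexa was 0.000 with RLE and DESeq2 and 0.002 in the groups compared, Ier2 for KL001 in siCop1 without Dexa 0.001 with no filter, and Ier3 for the siCop1 by KL001 interaction with Dexa 0.001 with RLE and DESeq2.

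Over all genes, KL001 in siCTRL without Dexa called 994 genes, but 225 in the groups compared; in siCop1 it called 604 without and 807 with Dexa, but 950 and 1435. Leaving out replicate 3 of siCTRL DMSO gave 653 rather than 994. For KL001 in siCTRL with Dexa, 1560 became 928 without replicate 1 of siCTRL DMSO Dexa and 962 without replicate 3 of siCTRL KL001 Dexa. For KL001 in siCop1 with Dexa, 807 became 509 without replicate 1 of siCop1 DMSO Dexa and 502 without replicate 3 of siCop1 KL001 Dexa. With no filter the siCop1 by Dexa interaction called 230 rather than 99 genes in DMSO and 156 rather than 83 in KL001, and in KL001 52 in the groups compared, 54 without replicate 3 of siCop1 KL001 and 43 without replicate 2 of siCop1 KL001 Dexa. The interactions with KL001 called 0 to 10 genes in the fit reported and up to 133 with no filter, and DESeq2 called 2 to 24.

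Of 36 pairs of equal replicate number across groups, 12 had deviations correlated above 0.1 (-0.43 to 0.57), and 16 matched best with their own number. All 3 pairs were above 0.1 for Dexa in siCTRL KL001 and for KL001 in siCTRL with Dexa, and not in the other comparisons. A replicate block in the fit to those groups alone, chosen after seeing the data, called 7 rather than 6 members in the first, and 0 members and 807 rather than 1560 genes in the second. In the fit to all libraries the replicate block ended 2 calls, Egr1 in the siCop1 by Dexa interaction in KL001 (adjusted p = 0.0545) and Egr2 with siCop1 in KL001 (adjusted p = 0.0548). Of the 3 genes most like a member by Pearson's r, Spearman's rho shared 0 for Egr1, Ier2 and Zfp36l1. Depth limits Egr2 and Egr3, with at most 71 counts per library.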
